A study of Mus musculus with 6 samples.

Results

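The genes described here are 10 members of a cell-surface adhesion and axon guidance system: the adhesion proteins Flrt1, Flrt2 and Flrt3, the netrin receptors Unc5a, Unc5b, Unc5c, Unc5d and Dcc, the secreted ligand Ntn1 and the membrane-anchored Ntng1. They were measured in the dorso-medial pallium, the dorsal forebrain tissue that forms medial cortex and hippocampus, of mouse embryos at E11.5, a day of gestation at which the first cortical neurons are being born. One array was hybridised for each of 6 single embryos, 3 labelled mutant and 3 labelled control, and mutant n and control n came from the same litter. The series title names the Wnt/beta-catenin pathway, but the labels give neither the altered gene, nor the allele or driver that makes a mutant, nor the genotype of the controls. Members were found by gene symbol in the authors' deposited table. A further 2 probes, the only one of Unc5d among them, were found by accession in the scanner files. Flrt3 was chosen by its low signal in mutants against controls on these arrays, so its difference between the groups is given below as a description with no test.

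Flrt proteins are transmembrane proteins with leucine-rich repeats outside the cell. They bind one another, the latrophilins and teneurins on neighbouring cells, and Unc5 receptors, which turn a shed or membrane-bound Flrt ectodomain into a repulsive cue. Netrin-1, the product of Ntn1, is a secreted laminin-related cue that attracts growing axons through Dcc and repels them where an Unc5 receptor is present. In the developing mouse cortex, Flrt3 is known from the migration and spacing of young pyramidal neurons, and Flrt2 with Unc5d from the delay of neurons on their way to the cortical plate.

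The 10 members were represented by 21 array probes, 19 of them in the authors' deposited table and 2 in the scanner files only. Of the table's symbol columns, the one headed by the array maker names all 19, while the plain one names 5 and lacks Flrt3, so either was accepted. One bright probe carrying the symbol Dcc lies on chromosome 7 by the array's own coordinates while the gene lies on chromosome 18, and it was kept apart from the gene. Of the 21 probes, 19 were well above background on all 6 arrays and 2 on none. Of the 10 members, 9 had a row among the 21118 rows tested, the exception being Unc5d.

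A level below is the log2 of a probe's background-subtracted signal minus the 75th percentile of its array, so that 0 is the signal at that percentile and each unit is a doubling. Levels of different probes are not on a common scale, and only embryos were compared. Between 65.75% and 67.9% of spots were well above background on the mutant arrays and between 68.68% and 70.1% on the control arrays, and no spot was saturated. The number of arrays limits the precision. The 9 dorsal pallium markers reported, Emx1, Emx2, Pax6 and Tbr1 among them, were above background on all 6 arrays. Of all rows, 55.0% had a positive mutant minus control difference and the median difference was 0.025 on the log2 scale. Mutant 1 and control 1 lay on one slide and the other 4 embryos on another.

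Flrt3 had the largest difference of the 9 measured members. Its brightest probe, on chromosome 2 from 140485061 to 140485120 (mm9), read 1.53, 1.48 and 1.45 for mutants 1, 2 and 3, compared with 2.85, 2.97 and 3.19 for controls 1, 2 and 3. The mutant mean was 1.49 ± 0.04 and the control mean 3.0 ± 0.17 (SD, n = 3 each). The mutant minus control difference was -1.51 with a standard error of 0.10, a 2.86-fold lower signal. Every mutant lay below every control, and the controls were more spread than the mutants. In bulk tissue, fewer cells that express a gene and less RNA per expressing cell cannot be told apart, here and for each gene below.

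The other Flrt3 probes showed the same difference. The probe from 140483956 to 140484015 read 0.18, -0.04 and 0.12 in mutants, against 1.49, 1.55 and 1.85 in controls. The probe from 140484265 to 140484324 read -0.62, -0.43 and -0.51 in mutants, against 0.75, 1.01 and 1.22 in controls. Their differences were -1.54 and -1.51, and the 3 probes span 1165 bases. Within litters the brightest probe differed by -1.32 in litter 1, -1.49 in litter 2 and -1.74 in litter 3, so the litter with the highest control had the largest difference and the mutants hardly varied. In the authors' deposited table the log2 ratios of the 3 probes were -1.48, -1.51 and -1.45.

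Markers of the dorsal pallium itself differed in both directions. Of the 9 reported, 5 were lower and 2 higher in every mutant than in every control. Over all rows the shares were 11.9% and 13.0%. Likewise 5 lower and 2 higher markers had an unadjusted p under 0.05 in limma, against 7.44% and 9.5% of all rows. The median difference of the 9 was -0.50, and 0 passed the adjusted threshold. Lhx2, Emx2 and Dmrt3 passed as lower with normexp background correction. The summed level of the 9, as signal relative to the 75th percentile, ranged from 80 to 99.7 in mutants and from 105 to 115 in controls. The median and the sums leave out the listed marker that is not reported here. The part of dorsal pallium cells in the Flrt3 and Unc5b values was not tested.

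The RefSeq sequence of the 250 bases before the Flrt3 start (GRCm38.p6, chr2:140671477-140671726, minus strand) is printed because Flrt3 had the largest difference, and that of Ntng1 (chr3:110143473-110143722, minus strand) because Ntng1 had the largest difference in the opposite direction. Capitals mark CTTTG, the core letters of the motif bound by Tcf and Lef factors, the DNA-binding partners of beta-catenin, or its reverse complement CAAAG. Both are written in the direction of the gene.
Flrt3: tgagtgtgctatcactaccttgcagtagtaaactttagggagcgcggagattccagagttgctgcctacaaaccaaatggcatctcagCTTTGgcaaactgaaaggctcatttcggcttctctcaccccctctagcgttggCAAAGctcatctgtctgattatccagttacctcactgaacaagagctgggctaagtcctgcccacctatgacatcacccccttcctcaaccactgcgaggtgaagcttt
Ntng1: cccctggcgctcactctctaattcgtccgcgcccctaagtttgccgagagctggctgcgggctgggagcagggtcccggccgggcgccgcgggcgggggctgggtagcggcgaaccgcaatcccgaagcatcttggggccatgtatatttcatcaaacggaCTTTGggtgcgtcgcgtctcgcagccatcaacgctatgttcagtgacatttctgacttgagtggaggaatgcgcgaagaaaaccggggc
The Flrt3 stretch holds CTTTG once on each strand and the Ntng1 stretch once on the forward strand. CTTTG occurs on either strand in 48.6% of 32851 promoter stretches of the same length, and neither stretch holds the longer CTTTGA or CTTTGT, which occur on either strand in 27.6%. These are matches of letters and not binding sites. A promoter was matched for 6 of the 10 members, and of the others Flrt2, Unc5b and Unc5c hold CTTTG while Unc5a does not. Of these, Flrt2 alone holds the longer form.

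Flrt1 and Flrt2 did not pass the test, and in both the groups overlapped. Flrt1, which acts together with Flrt3 in the migration of cortical neurons in mice, read 0.12, 0.48 and 0.17 in mutants, against 0.19, 0.27 and 0.48 in controls. No embryo stood apart, and the difference was -0.05 (95% interval -0.38 to 0.27, limma adjusted p = 0.865). Its 3 probes gave differences of -0.05, -0.01 and -0.01.

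Flrt2, the paralog that binds Unc5d, read -1.68, -1.95 and -1.92 in mutants, against -1.90, -2.20 and -2.39 in controls. Each mutant was higher than the control of its litter, by 0.22, 0.25 and 0.48, but control 1 lay above 2 of the mutants. The difference of 0.31 had an interval of -0.06 to 0.68 and did not pass (limma adjusted p = 0.36), and it was 0.20 without control 3. A dimmer Flrt2 probe differed by 0.15 with an interval of -0.54 to 0.85, and its groups overlapped. On that probe the litters differed by 0.37, 0.06 and 0.03. Both intervals leave out a difference of the size and direction seen for Flrt3.

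**Figure D1:**
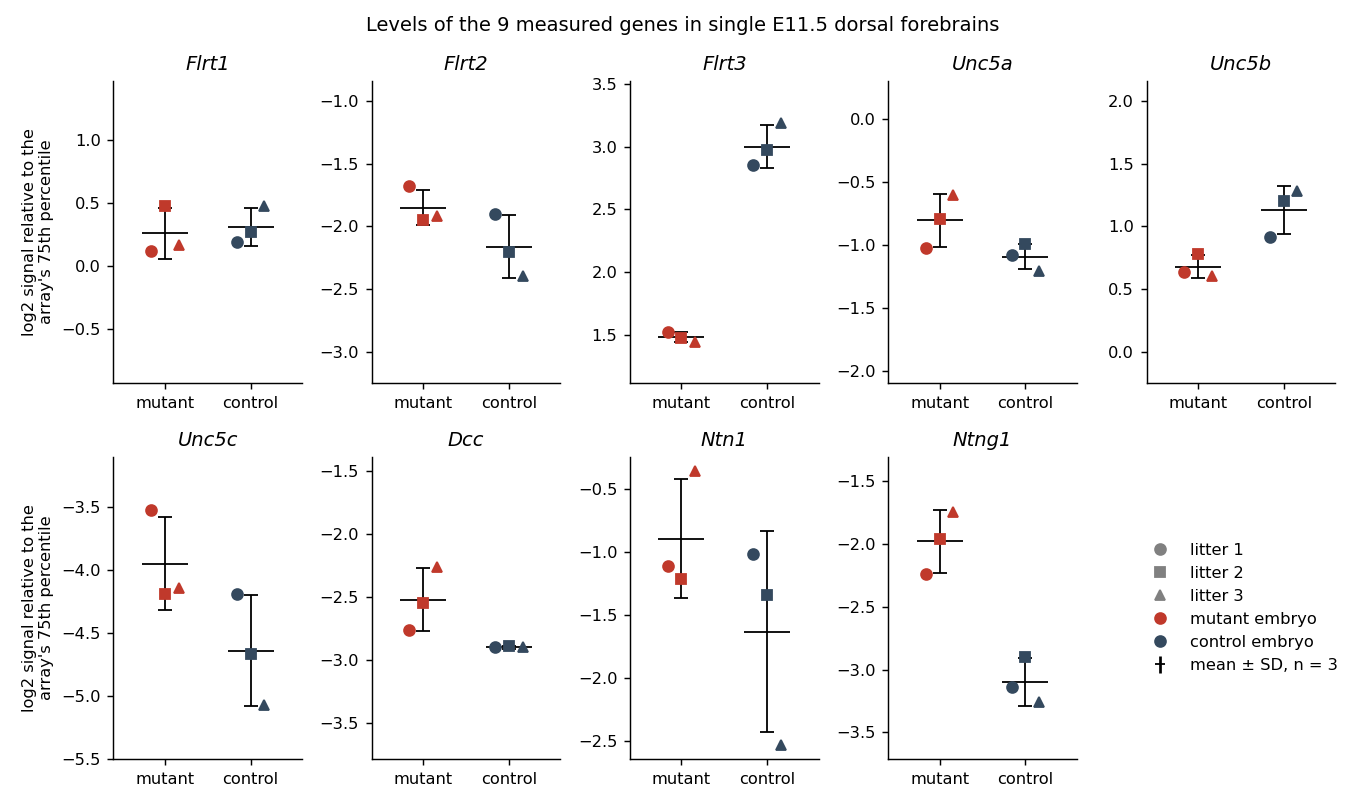
Levels of the 9 measured members in each embryo, as log2 signal relative to the array's 75th percentile, with mutants left and controls right in each panel. Points are single embryos, with the shape marking the litter, and horizontal lines with whiskers are group means with SD (n = 3). The Flrt3 groups are separated by more than 1 unit, Ntng1 and Dcc are separated upward and Unc5b downward. The Unc5c groups, with mutants higher, touch without crossing, and the other groups overlap.

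Of the 8 measured members other than Flrt3, 0 passed an adjusted p of 0.05 in limma, where 0.0331% of all rows did (0.00947% with higher and 0.0237% with lower values in mutants). At an unadjusted p under 0.05 there were 3, Unc5b, Dcc and Ntng1, where 16.9% of all rows had such a p (9.5% higher and 7.44% lower in mutants). In 3 of the 8 every mutant was higher than every control (13.0% of all rows) and in 1 every mutant was lower (11.9% of all rows), where the groups of 24.9% of all rows did not overlap in either direction. The differences of the 8 ranged from -0.46 to 1.12 with a median of 0.34, and 6 were positive.

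Unc5b, a netrin and Flrt receptor of vessels and neurons, was the only Unc5 gene with lower values in mutants. Its probe on chromosome 10 from 60225398 to 60225457 read 0.64, 0.78 and 0.61 in mutants, against 0.92, 1.2 and 1.28 in controls. No mutant reached the lowest control, and the litters differed by -0.29, -0.41 and -0.67. The difference was -0.46 with a standard error of 0.12 (95% interval -0.74 to -0.17), 1.37-fold lower, and did not pass the threshold (limma adjusted p = 0.189). The authors' deposited table gives a log2 ratio of -0.405 with an fdr of 0.0932.

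Unc5b is known from endothelial cells, and the 10 endothelial markers were all above background on all 6 arrays. Of these, 4 had a positive and 6 a negative difference. Among the 10, 0 had groups that did not overlap (24.9% of all rows) or a limma p under 0.05 before adjustment (16.9%). Their summed level, as signal relative to the 75th percentile, ranged from 13.3 to 19.9 in mutants and from 15.4 to 18.1 in controls. The groups overlapped in that sum, and the part of vessel cells in the Unc5b values was not tested.

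Unc5c, a repulsive netrin receptor, was dim. It read -3.52, -4.19 and -4.14 in mutants, against -4.19, -4.67 and -5.07 in controls, with mutant 1 highest. Mutant 2 lay just above control 1, so the groups touched without crossing. The difference of 0.69 (standard error 0.28) did not pass (limma adjusted p = 0.296), and it was 0.48 without control 3 and likewise 0.48 without mutant 1. A dimmer probe of the gene had a difference of 0.51 with overlapping groups. With normexp background correction the brighter probe gave 0.47 and with the authors' log2 values 0.42.

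Mutant 1, the highest for Unc5c, was also the highest in the summed level of 12 markers of meninges and mesenchyme, collagens and Foxc1 among them. All 12 were measured, 7 with a positive and 5 with a negative difference, and 11 were above background on all 6 arrays. Their summed level was 52.0, 27.7 and 18.8 for mutants 1, 2 and 3, compared with 34.3, 31.9 and 24.6 for controls 1, 2 and 3. The median deviation of these markers from the control mean was 0.89 in mutant 1 and between -0.66 and 0.12 in the other embryos. Flrt2 was likewise highest in mutant 1. Mutant 1 also had the highest summed level of hem and choroid plexus markers, 8.45 against 1.24 to 5.47 in the other embryos. The same held for diencephalic markers, 4.99 against 1.39 to 4.4, and for endothelial and microglial markers. It did not hold for dorsal pallium, subpallial, neuronal, Cajal-Retzius or erythroid markers. The part of any of these tissues in the Unc5c and Flrt2 values was not tested.

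Unc5a, a further repulsive receptor of neurons, read -1.02, -0.79 and -0.60 in mutants, against -1.08, -0.99 and -1.20 in controls. Mutant 1 fell within the control range while the other mutants lay above it. The difference of 0.29 had an interval of -0.03 to 0.60 (limma adjusted p = 0.33), and the litters differed by 0.06, 0.21 and 0.60. Without mutant 3 the Unc5a difference was 0.19. The single Unc5d probe was not well above background on any of the 6 arrays, so no difference is given for the receptor that pairs with Flrt2.

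Dcc, the attractive netrin receptor, had a small positive difference on 1 of its probes. The brighter chromosome 18 probe, from 71418661 to 71418720, read -2.76, -2.55 and -2.26 in mutants, against -2.90, -2.89 and -2.90 in controls. The controls were nearly identical and every mutant was higher, mutant 3 most. The difference was 0.37 with a standard error of 0.13, 1.30-fold, and did not pass (limma adjusted p = 0.257). Without mutant 3 it was 0.24.

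The other Dcc probe on chromosome 18 did not show it. That probe read -5.43, -5.09 and -5.06 in mutants, against -4.63, -5.56 and -5.25 in controls, an overlap with a difference of -0.05 (standard error 0.25). The probe with the Dcc symbol on chromosome 7 read 5.0, 5.5 and 4.62 in mutants, against 4.31, 5.03 and 4.3 in controls. That difference was 0.49 with a standard error of 0.30 and the groups overlapped. Averaging the chromosome 18 probes gave 0.16 for Dcc.

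**Figure D2:**
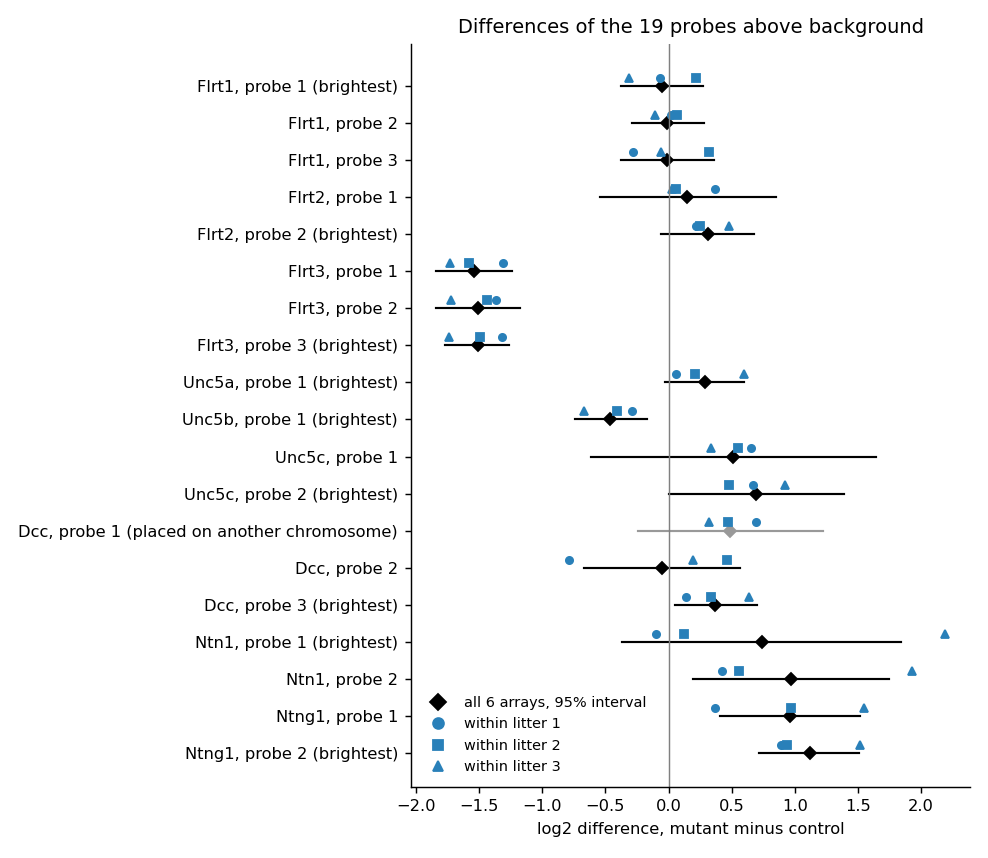
Mutant minus control difference of every measured probe of the members on the log2 scale (diamonds, with lines for the 95% interval) from the fit in which each probe is a row, with the difference within each litter as a blue point and the chromosome 7 probe in grey. The 3 Flrt3 probes lie near -1.5, both Ntng1 probes near 1, both Ntn1 probes are positive, and the chromosome 18 probes of Dcc disagree.

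Ntn1, the secreted ligand, varied more within each group than any other member, over the brightest probe of each gene. It read -1.11, -1.21 and -0.35 in mutants, against -1.01, -1.34 and -2.53 in controls. Litters 1 and 2 hardly differed, at -0.10 and 0.12, while litter 3 differed by 2.19. The difference of 0.74 had a standard error of 0.45 and an interval of -0.38 to 1.85 (limma adjusted p = 0.455). It was 0.28 without control 3 and 0.46 without mutant 3. The second, dimmer Ntn1 probe read -5.38, -5.53 and -5.00 in mutants, against -5.80, -6.09 and -6.93 in controls, and there the groups did not overlap. That probe differed by 0.97 with a standard error of 0.32 and an adjusted p of 0.237 in limma with each probe as a row, a fit in which 0.0261% of probes passed.

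The subpallium is a textbook site of forebrain Ntn1 expression, and the same embryos stood apart for its markers, Dlx, Gsx and Gad genes among them. Of 12 listed subpallial markers 11 were measured, Nkx2-1 being the exception, and 10 had a positive difference, with 8 above background on all 6 arrays. Their summed level was 11.3, 11.3 and 14.7 for mutants 1, 2 and 3, compared with 8.74, 7.84 and 2.24 for controls 1, 2 and 3. Control 3, lowest for Ntn1, had the lowest sum, and mutant 3, highest for Ntn1, had the highest sum. For the summed markers mutants 1 and 2 lay above controls 1 and 2, as they did for the dimmer Ntn1 probe. For the brighter Ntn1 probe mutants 1 and 2 lay among those controls. The part of the dissected area in the Ntn1 values was not tested.

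**Figure D3:**
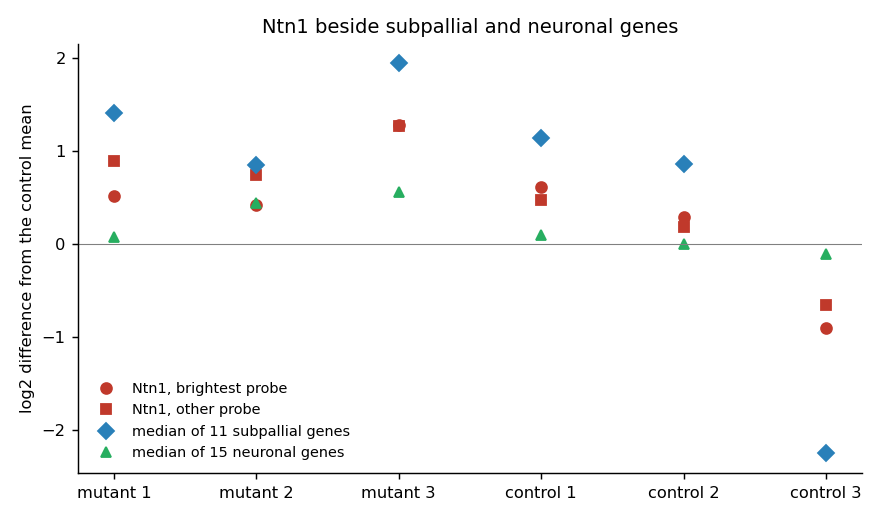
Log2 difference from the control mean (vertical axis) in each embryo for both Ntn1 probes (red), the median of 11 subpallial markers (blue) and the median of 15 neuronal markers (green). Control 3 is lowest for each, with a subpallial median of -2.25, and mutant 3 is highest for each, with a subpallial median of 1.94.

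Ntng1 encodes netrin-G1, a lipid-anchored protein that does not bind Dcc or Unc5 and pairs instead with the leucine-rich repeat protein encoded by Lrrc4c. It had the largest positive difference of the members. Its brighter probe, on chromosome 3 from 109946348 to 109946407 and spotted 10 times per array, read -2.24, -1.96 and -1.75 in mutants, against -3.14, -2.90 and -3.26 in controls. The lowest mutant lay well above the highest control. The means were -1.98 ± 0.25 in mutants and -3.10 ± 0.19 in controls (SD, n = 3 each).

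The Ntng1 difference was 1.12 with a standard error of 0.16 (95% interval 0.72 to 1.51), a 2.17-fold higher signal, and the litters differed by 0.89, 0.94 and 1.52. Over all rows it did not pass (limma adjusted p = 0.104). It passed with normexp background correction (0.93, limma adjusted p = 0.0373), where 0.573% of all rows passed, and with a variance trend and robust variances (limma adjusted p = 0.044), where 0.677% did. The authors' deposited table gives a log2 ratio of 0.94 with an fdr of 0.0327 for this probe and of 0.605 with an fdr of 0.0988 for another.

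Both Ntng1 probes together span 362301 bases. The dimmer one read -4.06, -3.51 and -3.28 in mutants, against -4.43, -4.47 and -4.82 in controls, again without overlap, and differed by 0.96 with a standard error of 0.23. In both Ntng1 probes mutant 3 was highest and mutant 1 lowest of the mutants. The remaining probe was above background on no array.

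Netrin-G1 is known from neurons, as Dcc is, and markers of young neurons were mostly higher in mutants, though none passed the test. All 15 neuronal markers, Tubb3, Dcx and Stmn2 among them, were above background on all 6 arrays, and 14 had a positive difference, with a median of 0.31. In 5 of them every mutant was higher than every control (13.0% of all rows). An unadjusted p under 0.05 in limma was found for 6, all higher in mutants (9.5% of all rows). Mutants 1, 2 and 3 had summed levels of 79.8, 112 and 112, and controls 1, 2 and 3 had 76.1, 75.3 and 70.5. In mutant 1 their summed level lay above every control, as Ntng1 did, and their median deviation of 0.08 lay within the controls' range. The part of neuron number in the Ntng1 and Dcc values was not tested.

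The counts in this paragraph are over the brightest probe of each gene. By that probe the members shared the litter in which they differed most. In all 9 measured members the largest absolute difference between littermates was that of litter 3, as it was in 42.1% of all rows. Among the dimmer probes above background, those of Flrt2, Unc5c and Dcc differed most in litter 1 and 1 of Flrt1 in litter 2. The other dimmer probe of Flrt1 and those of Flrt3, Ntn1 and Ntng1 differed most in litter 3. The sign was the same in the 3 litters for 7 of the 9, Flrt1 and Ntn1 being the exceptions, and for 47.3% of all rows. On the dimmer chromosome 18 probe of Dcc the sign varied, and on the dimmer probe of Ntn1 it was the same in the 3 litters. The members were measured in the same 6 embryos and are no replicates of one another, so no test was made of these counts. In 8 of the 9, all but Unc5c, both litters of the second slide had a larger absolute difference than litter 1, as in 40.0% of all rows. Ntng1 differed by 1.23 on the second slide and by 0.89 on the first, whose single pair is litter 1, so each slide gave the same direction.

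The genes whose 6 values were most like those of Flrt3, each gene centred on its control mean, were Ror2, Chst2, Tnfrsf19 and Slc9b2. The root mean square distance over the 6 embryos was 0.0759 for Ror2, a receptor tyrosine kinase that binds Wnt5a. Ror2 read 0.85, 0.69 and 0.85 in mutants, against 2.13, 2.16 and 2.50 in controls, with control 3 highest as in Flrt3. The distances were 0.129 for Chst2, a sulfotransferase of glycan chains, 0.14 for Tnfrsf19, a receptor of the TNF receptor family, and 0.153 for Slc9b2, a sodium/proton exchanger. Their differences were -1.63, -1.36 and -1.56. These genes were picked for likeness and nothing is drawn from their number.

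For Ntng1 the nearest profiles were those of Gldn, Vldlr, Slc1a3 and Fign. The distance was 0.121 for Gldn, an adhesion protein of the node of Ranvier, and likewise 0.121 for Vldlr, a receptor of reelin. Slc1a3, a glutamate transporter of radial glia and astrocytes, lay at 0.146 and Fign, a microtubule-severing enzyme, at 0.15. Their differences were 0.96 for Gldn, 1.05 for Vldlr, 0.99 for Slc1a3 and 1.22 for Fign. Gldn was measurable above background in only 2 of the 3 controls and its difference was 0.24 with the authors' log2 values.

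**Figure D4:**
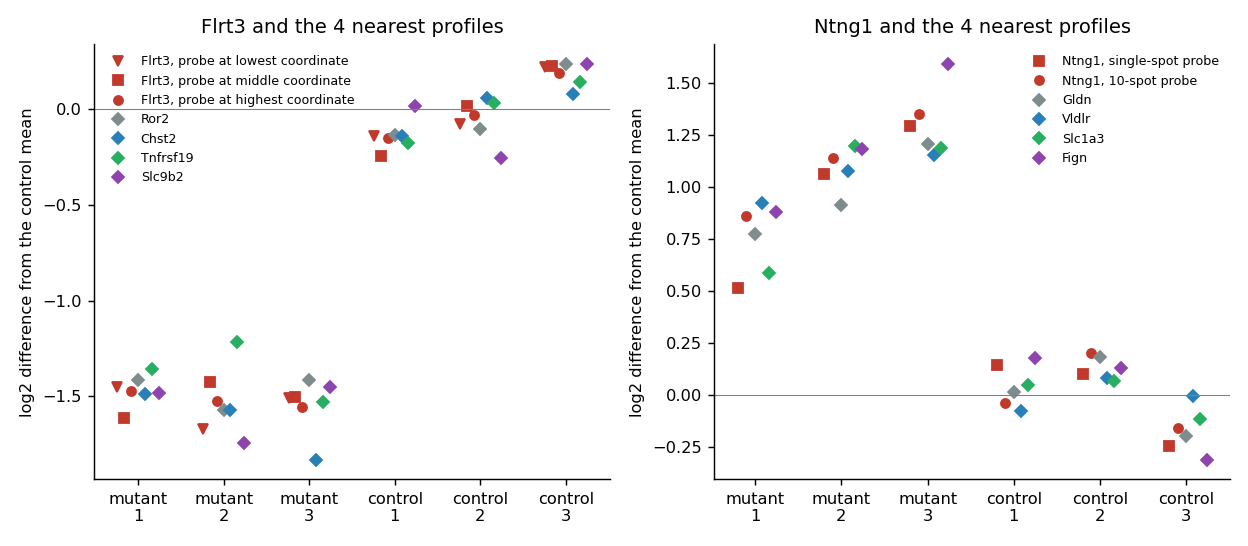
Log2 difference from the control mean in each embryo for Flrt3 (left panel, 3 probes) and Ntng1 (right panel, 2 probes), with the 4 genes nearest to each. All mutant points lie below -1 in the left panel and above 0.5 in the right panel, and mutant 3 is the highest for both Ntng1 probes.

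The known partners of the members were taken as lists, with no gene of them past an adjusted p of 0.05 in limma. The 13 genes for Flrt partners include latrophilins, teneurins and Fgfr1. At an unadjusted p under 0.05 in limma, 4 had a positive (9.5% of all rows) and 3 a negative difference (7.44%). Their median difference was 0.29, against 0.025 over all rows. Fgfr1, a receptor whose signalling Flrt proteins promote in Xenopus, differed by 0.32 (standard error 0.06, limma adjusted p = 0.144), and its 3 probes ranged from 0.02 to 0.32. Fgfr1 passed with a variance trend and robust variances (limma adjusted p = 0.0496) and under no other alternative run for the list. Rnd1, a GTPase that acts with Flrt3 in Xenopus cell adhesion, differed by -0.37 (limma adjusted p = 0.148). Of the 4 teneurins, Tenm4 differed by -0.77 and Tenm1 by 0.79 (limma adjusted p = 0.158 and 0.191), and Tenm2 and Tenm3, given to complete the family, by -0.86 and -0.084.

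Of 16 listed netrins and netrin receptors other than the members, with their binding partners, 14 were measured. Of these, 12 had a positive difference (55.0% of all rows), with a median of 0.23. An unadjusted p under 0.05 in limma was found for 5, all higher in mutants (9.5% of all rows). Ntn4, a netrin related to laminin beta chains, differed by 0.60 (standard error 0.13, limma adjusted p = 0.154). Cntn1, a contactin of neurites, differed by 0.90 (limma adjusted p = 0.214), or by 0.59 without control 3. Neo1, a Dcc relative that binds netrins and RGM proteins, differed by 0.23, and Lrrc4c, the partner of Ntng1, by 0.30 (limma adjusted p = 0.225 and 0.244).

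The list of 30 genes acting downstream of Dcc and Unc5 receptors had a median of 0.06, with 4 positive and 1 negative difference at an unadjusted p under 0.05, a share close to the 16.9% of all rows. Myo10, a motor protein that carries Dcc, differed by 0.59 (standard error 0.13, limma adjusted p = 0.163). Trim9, a ubiquitin ligase that binds Dcc, differed by 0.38 (limma adjusted p = 0.186) and its probes ranged from 0.12 to 0.38. The kinase Src differed by 0.57 (limma adjusted p = 0.19), or by 0.36 with the authors' log2 values. Dapk1, a kinase through which Unc5b without ligand promotes cell death, differed by -0.32 (limma adjusted p = 0.214), the same sign as Unc5b.

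Among other neuronal adhesion proteins with leucine-rich repeats 26 of 31 were measured, with a median of 0.15. At an unadjusted p under 0.05 in limma, 6 had a positive (9.5% of all rows) and 2 a negative difference (7.44%). Lrrn1 had a larger difference than Flrt3. It read 1.75, 1.82 and 1.21 in mutants, against 3.28, 3.48 and 3.59 in controls, a difference of -1.86 (standard error 0.19, limma adjusted p = 0.0634). Its paralog Lrrn3 differed the other way, with 2.59, 2.50 and 2.50 in mutants, against 1.88, 1.79 and 1.91 in controls. The Lrrn3 difference was 0.67 (limma adjusted p = 0.0692). Lrrtm1, a synapse-organising protein, differed by 0.82 and Lrrn2 by 0.57 (limma adjusted p = 0.104 and 0.133). Lrrn1, Lrrn3 and Lrrtm1 passed with normexp background correction and with a variance trend and robust variances. Lrrn1 also passed with median centring, with probes above background on all 6 arrays and with the authors' log2 values. With the litter as a block none of the 3 passed (limma adjusted p = 0.156 for each).

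**Figure D5:**
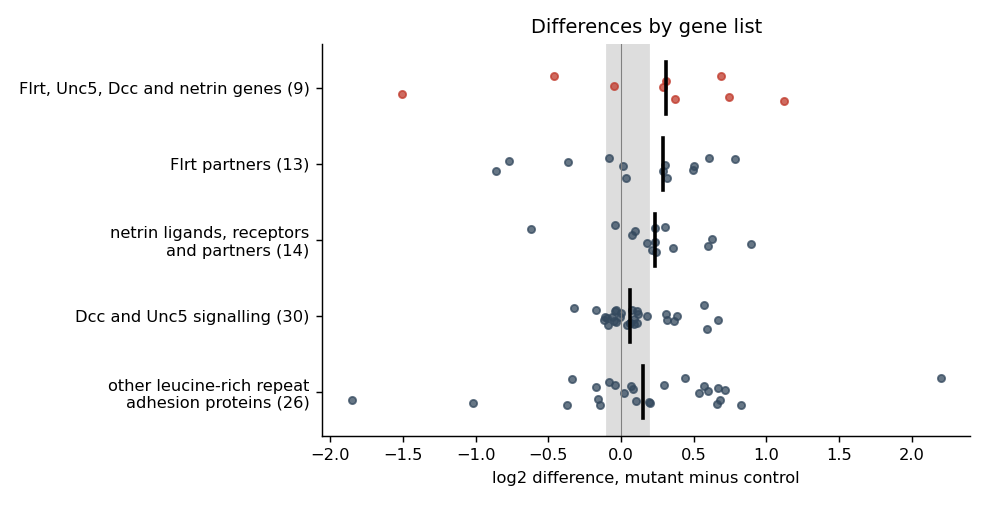
Mutant minus control differences on the log2 scale for each measured gene of the 4 partner lists and for the 9 measured members, 1 point per gene, with black bars for medians and grey shading for the middle 50% of all rows. List medians are 0.29 for Flrt partners, 0.23 for netrin partners, 0.06 for Dcc and Unc5 signalling and 0.15 for other leucine-rich repeat proteins, the lowest point is Lrrn1 at -1.86, and the highest is Lrrtm3 at 2.20, a gene named after its values were seen that did not pass.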

How the data were processed

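Total RNA of single embryos was hybridised to Agilent 1-colour (Cy3) arrays, design 026655 with mm9 positions. The deposited scanner files hold spot intensity from Feature Extraction 10.7.3.1, background-subtracted within the array and not scaled between arrays, with 0 or 1 marks for spots above background, saturated and outlying, per the file headers. A table of the series deposited by the authors holds log2 values of 27269 probes, a log2 ratio and linear ratio or fold, with the p-value and fdr of their own comparison. The sources used here do not say how those log2 values were normalized, and limma appears in the submitters' processing notes with no version and no stated use. The table's column numbers do not follow the sample titles (its first mutant column correlates best with mutant 2, r = 0.914), so its columns were used by group only.

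Here, outlier spots were dropped and the array's 75th percentile was subtracted from log2 of the processed signal. Spots sharing a probe were then averaged. A probe had to be well above background on 3 or more of the 6 arrays (26900 were, of which 51 lacked a value and were dropped). Probes were named by accession (26575) or table symbol through RefSeq GRCm38.p6, used for names and promoters only. 136 probes placed on another chromosome than their gene were left unnamed. The brightest probe stood for a gene (21118 rows, 17008 named genes).

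Mutants were set against controls in limma 3.58.1 (lmFit, eBayes; R 4.3.3), two-sided, with Benjamini-Hochberg adjustment over all rows and a threshold of 0.05. The script was tested on simulated data. Other tables were made with Python 3.11.15, numpy 2.4.6 and pandas 2.3.3, and figures with matplotlib 3.10.9. Within litters 1, 2 and 3, the deviations from group means correlated at 0.309, 0.357 and 0.107, and between litters at -0.41 to 0.109. Litters 1 and 2 thus lay above every pair from different litters, and litter 3 did not. The fit has no litter term because the sources state no paired test, so its p-values take no account of litter. The litter block was tried as an alternative, beside normexp correction (offset 50, on median signals), quantile and median scaling, other filters on dim probes, every probe or the mean of a gene's probes, the slide as a block, a variance trend, the authors' log2 values, an adjusted p of 0.1 and leaving out each embryo. Keeping probes on another chromosome under their gene was chosen after seeing the data.

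One listed dorsal pallium marker is not reported here. The members and all gene lists were chosen with earlier results of these data known. Genes named besides the members are, per list, the 4 with the smallest unadjusted p, and the 4 nearest profiles of Flrt3 and of the member with the largest positive difference.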

Additional observations from a re-analysis of the deposited data

How the results depend on the processing

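Of 144 values of the members other than Flrt3 under alternatives, 140 kept their direction and their side of the threshold, 2 became significant (Ntng1 with normexp correction and with a variance trend) and 2 turned sign. These were Flrt1 at 0.01 without mutant 1 and 0.03 without control 3, and leaving out single embryos gave Flrt1 a range of -0.17 to 0.03. The Flrt3 difference, given with no test, kept its sign in all 18 alternatives and ranged from -1.59 to -1.42 without single embryos and from -1.60 to -1.45 over the other alternatives, and that of Ntng1 from 1.0 to 1.25 (limma adjusted p 0.0894 to 0.419) and from 0.93 to 1.12.

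Counts past the limma threshold moved with the settings, and the cause was not tested. Over all rows there were 7, against 121 with normexp correction (48.8% of them higher in mutants, against 28.6%), 15 with quantile normalization, 23 with median centring, 26 with probes above background on all 6 arrays, 2 when probes of a gene were averaged, 143 with a variance trend, 34 with the authors' log2 values and 79 at an adjusted p of 0.1. There were 0 without a filter on dim probes (7928 at an unadjusted p under 0.05). The count of members past the threshold is no independent result, since it was 1, Flrt3 itself, which was chosen by its low signal in mutants. It was 2 with normexp correction or a variance trend and 0 when probes were averaged or without the filter.

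With the litter as a replicate block 0 rows and 0 members passed (4189 rows at an unadjusted p under 0.05, smallest adjusted p 0.156), and with the slide as a block 0 rows and 0 members (4156, smallest adjusted p 0.069). Without single embryos 0 to 1 rows and 0 members passed, 1 row without mutant 1. The list of other leucine-rich repeat proteins had 3 genes past the threshold with normexp correction and likewise 3 with a variance trend, and 1 with median centring, with probes above background on all 6 arrays or with the authors' log2 values. The Flrt partners had 1 with a variance trend. In the other alternatives, and for the other lists in all, the count was 0. Lists were run under alternatives other than normexp and the litter block after seeing the data. Dim probes (Unc5c, the second probes of Ntn1, Dcc and Ntng1) are the least certain, and 3 embryos per group limit which differences could be detected.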
